A study of Sus scrofa with 2 samples.

Results

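A set of 9 genes of the vascular endothelial growth factor (VEGF), angiopoietin and neuropilin systems was followed across the somatic cells of 2 pig antral follicles. They were the members of a fixed list (VEGFA, VEGFB, VEGFC, ANGPT2, ANGPTL4, FLT1, KDR, NRP1 and NRP2), matched by exact gene symbol, and all 9 were found among the 22342 genes of the count matrices. The follicles, called AF75 and AF76, came from 1 Landrace × Yorkshire pig of 210 days that had been given pregnant mare serum gonadotropin, and both were healthy antral follicles over 7 mm. Cells were released from each follicle, including those stripped from the cumulus-oocyte complex with hyaluronidase, and made into 1 droplet library per follicle with a kit that tags the 3′ end of transcripts. Barcodes with 2000 to 5000 detected genes and under 7% of mitochondrial counts were kept as cells, which left 9362 of 14289 barcodes in AF75 and 7843 of 15548 in AF76. With 1 library per follicle, no test between follicles was possible. Every interval below is a 95% interval for counting error only, and a difference between the follicles cannot be told apart from a difference between their libraries.

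VEGFA, VEGFB and VEGFC are secreted growth factors of blood and lymph vessels. FLT1 (VEGFR1) and KDR (VEGFR2) are receptor tyrosine kinases of the VEGF system, and each binds only some of these ligands. KDR carries most of the growth signal in endothelial cells, and FLT1 binds VEGFA and VEGFB tightly with a weaker kinase. NRP1 and NRP2 are co-receptors that VEGF shares with class 3 semaphorins. ANGPT2 is a ligand of the endothelial receptor TEK, and ANGPTL4 is an angiopoietin-like protein that inhibits lipoprotein lipase. In the ovary, granulosa cells are a known source of VEGFA while the granulosa layer itself holds no vessels before ovulation.

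In the RefSeq annotation of the Sscrofa11.1 assembly the ligand genes were VEGFA (chr7:38746393-38762282), VEGFB (chr2:7872873-7876149) and VEGFC (chr15:39037764-39136234). The angiopoietin genes were ANGPT2 (chr15:37544177-37600925) and ANGPTL4 (chr2:70905767-70912892), and the receptor genes were FLT1 (chr11:5620698-5797095), KDR (chr8:41809116-41856379), NRP1 (chr10:56280673-56430832) and NRP2 (chr15:108974246-109092316).

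Levels are given as CPM, the unique molecular identifiers (UMIs) of a gene over all UMIs of the cells of a follicle, scaled as counts per 1e6. UMIs are counted at the 3′ end, so levels carry no term for gene length. The cells held 111226504 UMIs in AF75 and 108920601 in AF76, with a median per cell of 11254.5 and 13902. A set of 56 barcodes was shared by the libraries, 18 of them among the cells. The granulosa list (6 genes in the matrices, with the inhibin subunits INHA and INHBA) summed to 23750 CPM in AF75, against 25561 CPM in AF76. Of the 11 endothelial markers in the matrices, CDH5 and ROBO4 had 0 UMIs in the cells of both follicles and EMCN had 0 in AF75, and the list summed to 40.7 and 56.6 CPM, most of it EGFL7 at 32.4 and 44.8 CPM. Leukocyte-like barcodes, marked by 10 or more UMIs over at least 3 of 8 immune genes, numbered 4 in AF75 and 19 in AF76.

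VEGFA was the ligand that differed most between the follicles. Its level was 27.8 CPM in AF75 (interval 26.8 to 28.8, 3089 UMIs) and 17.6 CPM in AF76 (16.9 to 18.5, 1922 UMIs), a ratio of AF76 to AF75 of 0.635 (0.600 to 0.673). The counting intervals did not overlap. In AF75, 22.5% of cells carried at least 1 VEGFA UMI, against 19.8% in AF76. After each cell was thinned to 5000 UMIs, which left 9343 and 7738 cells, the shares were 11.3% and 8.14%. A single AF75 cell held up to 18 VEGFA UMIs, and 54 cells held 5 or more. In AF76 the highest cell held 5 and 3 cells reached that number.

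VEGFB and VEGFC differed less between the follicles than VEGFA. VEGFB, a ligand of FLT1 but not of KDR, was at 40.2 CPM in AF75, against 43.3 CPM in AF76 (ratio 1.07, 1.03 to 1.12). VEGFC, best known as a lymphatic growth factor, was at 33.6 CPM and 38.5 CPM (ratio 1.14, 1.09 to 1.20). Their thinned shares were 18.5% and 20.2% of cells for VEGFB, and 14.7% and 17.2% for VEGFC. The variance-to-mean ratio of the thinned counts, which is near 1 for random sampling of an even level, was 1.03 and 1.10 for VEGFB and 1.10 and 1.09 for VEGFC. For VEGFA it was 1.34 in AF75 and 1.03 in AF76.

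ANGPTL4 was among the most abundant members and ANGPT2 among the scarce ones. ANGPTL4 was at 46.6 CPM in AF75, against 41.4 CPM in AF76 (ratio 0.889, 0.854 to 0.925). It stood first in AF75 and beside VEGFB, with overlapping intervals, in AF76. Its UMIs were uneven: the thinned variance-to-mean ratio was 2.08 and 2.03, 192 and 151 cells held 5 or more UMIs, and the highest cells held 35 and 36. ANGPT2 was at 4.32 CPM in AF75, against 6.33 CPM in AF76 (ratio 1.46, 1.30 to 1.65), with a UMI in 3.48% and 5.53% of cells.

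A FLT1 UMI was found in more cells than a KDR UMI. FLT1 was at 33.8 CPM in AF75, against 26.3 CPM in AF76 (ratio 0.778, 0.740 to 0.817). A FLT1 UMI was found in 25.0% and 23.8% of cells, and in 13.5% and 11.1% after thinning. In AF75 its level overlapped that of VEGFC, its neighbour in the order of levels. KDR was at 12.2 CPM in AF75 (1356 UMIs) and 4.20 CPM in AF76 (458 UMIs), 2.90-fold higher in AF75 (2.61 to 3.23).

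By the variance-to-mean ratio KDR had the most uneven counts per cell of the 9 genes. A KDR UMI was present in 5.59% of AF75 cells and 2.33% of AF76 cells, and the highest cell held 29 UMIs in each follicle. The 1% of cells with the most KDR held 57.0% of its UMIs in AF75 and 77.1% in AF76. For FLT1 that share was 14.7% and 15.1%. The thinned variance-to-mean ratio of KDR was 3.49 and 3.41. In AF75, 22 cells with 10 or more UMIs carried 26.2% of all KDR UMIs, and in AF76 6 such cells carried 23.8%.

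**Figure D1:**
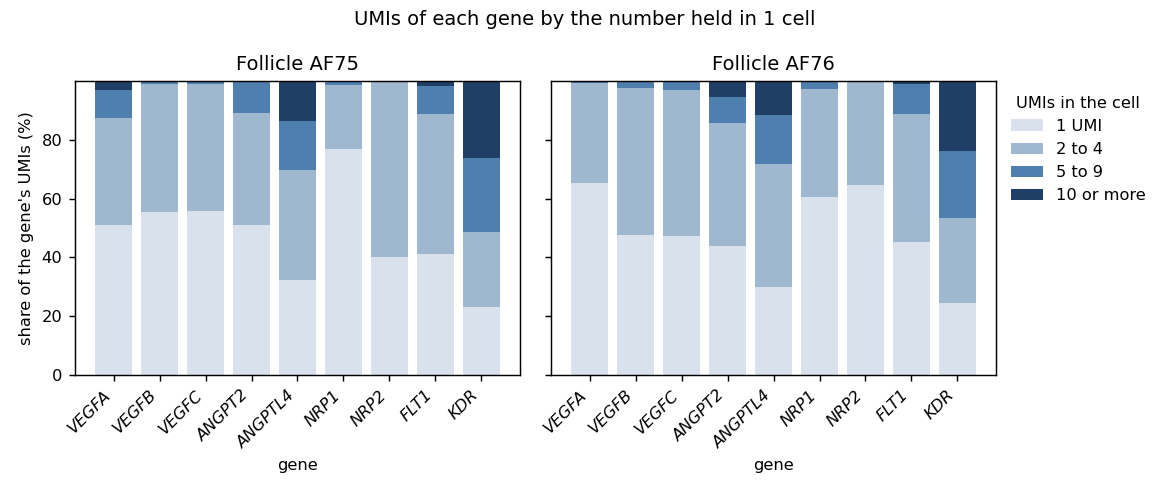
Share of the UMIs of each gene (y axis, %) that lay in cells holding 1, 2 to 4, 5 to 9, or 10 or more UMIs of that gene, for follicles AF75 (left) and AF76 (right). KDR has the largest share in cells with 10 or more UMIs (26.2% and 23.8%), followed by ANGPTL4, while VEGFB and VEGFC lie almost wholly in cells with 1 to 4.

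Cells rich in KDR carried granulosa transcripts, and their endothelial list summed to 18.2 CPM in AF75 (10.6 to 29.1) and 53.6 CPM in AF76 (32.3 to 83.7), beside 41.2 and 56.6 CPM in cells with no KDR UMI. The 75 AF75 cells with 5 or more KDR UMIs had a granulosa sum of 19366 CPM, against 23894 CPM in the 8839 cells with none, at median depths of 11546 and 11238 UMIs. PECAM1, CDH5, VWF, TEK, TIE1, ESAM, ROBO4, EMCN and PLVAP were all at 0 UMIs in those 75 cells, which allows up to 3.94 CPM each. Their FLT1 level was 125 CPM (103 to 150), against 31.5 CPM in cells without KDR, and their VEGFA level was 89.8 CPM (71.6 to 111), against 26.3 CPM. Of these 75 cells 55 belonged to the SHAS2 cluster described below, which as a whole held FLT1 at 56.2 CPM and VEGFA at 54.5 CPM. The part of cluster membership in these levels was not tested. The 22 AF76 cells with 5 or more KDR UMIs had a granulosa sum of 24890 CPM, with CDH5 at 0. PECAM1 was 16.9 CPM in them (6.22 to 36.9, 6 UMIs), beside 5.89 CPM in cells with no KDR UMI. EGFL7 was 28.2 CPM (13.5 to 51.9) beside 44.8 CPM, and VWF, TIE1 and ERG had 1 UMI each. FLT1 there was 50.8 CPM (30.1 to 80.3) beside 26.0 CPM in cells without KDR, and VEGFA was 22.6 CPM (9.75 to 44.5) beside 17.7 CPM, an interval that includes the level of the other cells. These groups of cells were chosen after the values had been seen.

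NRP2 had the lowest level of the 9 genes in both follicles, and NRP1 was below KDR in AF75 and above it in AF76. NRP1 was at 2.98 CPM in AF75 (332 UMIs) and 5.15 CPM in AF76 (561 UMIs), a ratio of 1.73 (1.504 to 1.98), and 3.07% and 5.43% of cells carried a UMI. NRP2 was represented by 5 UMIs in 3 cells of AF75 and 65 UMIs in 52 cells of AF76 (ratio 13.3, 5.41 to 42.3). These NRP2 counts are below the 200 UMIs asked of a gene before it was called.

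**Figure D2:**
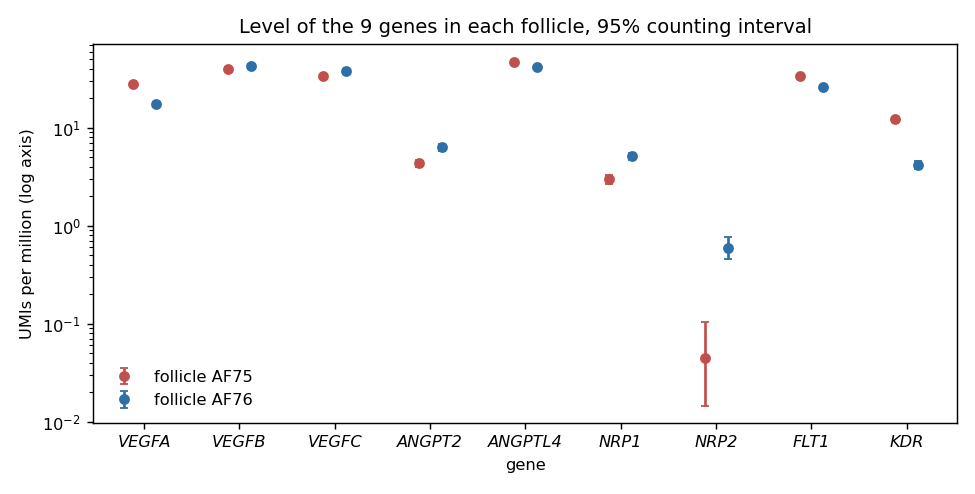
Level of each gene (CPM, log axis) in follicles AF75 and AF76, 1 library each. Points are the summed level of all cells and bars the 95% counting interval. KDR and VEGFA stand lower in AF76, and NRP1 and NRP2 stand higher.

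A gene was called when it had at least 200 UMIs in 1 of the follicles and its CPM differed 1.5-fold or more. Of the 8 members with 200 UMIs, 1 was higher in AF76 (NRP1) and 2 were lower (VEGFA and KDR). Over all 10049 genes with 200 UMIs, 1.8% were called higher and 3.85% lower, 5.65% either way. ANGPT2, at a ratio of 1.46, lay just under the limit, and passed it in thinned cells (1.53) and as the mean of per-cell CPM (1.59). The median size of the log2 ratio over all those genes was 0.12, and the log2 ratios of the members were -1.54 for KDR, -0.65 for VEGFA, -0.36 for FLT1, -0.17 for ANGPTL4, 0.10 for VEGFB, 0.19 for VEGFC, 0.55 for ANGPT2 and 0.79 for NRP1.

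To see which cells carried these differences, cells were grouped into 6 clusters without the use of the 9 genes or their pathway genes, and each cluster is called by a leading gene. The TGFB3 cluster (3680 cells in AF75 and 4029 in AF76) and the INSIG1 cluster (3135 and 2444), the latter led by cholesterol synthesis genes, held most cells of both follicles. The SHAS2 cluster, named after the symbol the gene list gives to pig hyaluronan synthase 2, had 1918 cells in AF75 and 388 in AF76. Its sum of the cumulus markers VCAN, SHAS2 and TNFAIP6 was 9753 CPM in AF75 and 1672 in AF76. The TGFB3 cluster had 603 and 411 CPM. The mural markers AREG, CYB5A and TGFB3 summed in the SHAS2 cluster to 967 CPM in AF75 and 5081 in AF76. In the TGFB3 cluster they summed to 4859 and 7590 CPM, and in the INSIG1 cluster to 3255 and 4988.5 CPM. By these markers the SHAS2 cluster did not hold like cells in the follicles. The TOP2A cluster of dividing cells had 455 and 121 cells, and the ALDH1A2 cluster 173 and 179. In the TOP2A cluster the cumulus markers summed to 5160 CPM in AF75 and 653 in AF76, and the mural markers to 1716 and 3974. By these markers it did not hold like cells in the follicles either. The CEMIP cluster had 1 cell in AF75 and 682 in AF76.

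In the TGFB3 cluster the VEGF genes and their receptors were at like levels in both follicles. VEGFA was at 17.7 and 16.7 CPM (ratio 0.947, 0.860 to 1.04), FLT1 at 30.9 and 29.9 CPM (0.969, 0.902 to 1.04) and KDR at 5.29 and 5.24 CPM (0.992, 0.833 to 1.18). None of the 7 members with 200 UMIs there passed 1.5-fold, beside 1.47% of genes (0.315% higher and 1.16% lower). In the INSIG1 cluster the ratio of VEGFA was 0.958 (0.864 to 1.06), and KDR, with 177 and 97 UMIs, was at 4.80 and 2.68 CPM (0.559, 0.432 to 0.720). None of the 5 members with 200 UMIs in that cluster was called between the follicles, where 0.273% of genes were higher and 1.19% lower (1.46% either way). KDR and ANGPT2 were below the other cells in both follicles in the INSIG1 cluster, where 1.42% of genes were lower and 0.721% higher. ANGPT2 was higher in the TGFB3 cluster than in the other cells of its own follicle, 7.51 CPM in AF75 (3.30-fold, 2.72 to 4.03) and 9.16 CPM in AF76 (2.87-fold, 2.41 to 3.44). It was the 1 member called higher there in both follicles, where 1.35% of genes were higher and 3.67% lower. Without integration that cluster held 6540 and 6766 cells, the ANGPT2 fold was 1.95 in AF75 and 0.940 in AF76, and the call was lost.

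In the SHAS2 cluster 4 members were called lower in AF76 and none higher, while 8.28% of genes were called lower and 8.07% higher (16.4% either way). Its mural and cumulus markers differed between the follicles, as given above, and the part of this in the ratios was not tested. VEGFA was at 54.5 CPM in AF75, against 18.3 CPM in AF76, 2.97-fold higher in AF75 (2.44 to 3.65). KDR was at 40.8 and 6.89 CPM, 5.93-fold higher in AF75 (4.33 to 8.32). FLT1 was at 56.2 and 28.4 CPM (1.98-fold, 1.68 to 2.34), and ANGPTL4 at 54.2 and 25.4 CPM (2.14-fold, 1.80 to 2.55). VEGFB was near equal at 40.3 and 38.0 CPM. VEGFC went the other way, with 19.97 CPM in AF75, against 29.9 CPM in AF76 (ratio 1.498, 1.25 to 1.79), just under the limit. KDR was also called higher in this cluster than in the other cells of each follicle, 7.65-fold in AF75 (6.83 to 8.57) and 1.70-fold in AF76 (1.20 to 2.35), where 1.73% of genes were higher in both. In AF76 this rested on 41 UMIs in 13 cells, 1 of which held 16. Without integration of the follicles the KDR fold there was 7.24 in AF75 and 0.864 in AF76 (6 UMIs in 101 cells), and the call was lost. ANGPT2 was called lower there, beside 2.79% of genes, and that call was lost too without integration (0.861-fold in AF76). In the TOP2A cluster 1 of the 4 members with 200 UMIs was called between the follicles, beside 8.53% of genes (2.4% higher and 6.14% lower). VEGFA was at 45.5 CPM in AF75, against 10.3 CPM in AF76 (23 UMIs), a ratio of 0.227 (0.142 to 0.346). FLT1 was below the other cells in both follicles (0.407-fold and 0.354-fold), as was ANGPT2, in a cluster where 4.5% of genes were lower and 4.36% higher. In the ALDH1A2 cluster FLT1 was the 1 member below the other cells in both (0.648-fold and 0.655-fold), beside 3.88% of genes lower and 2.84% higher. No member had 200 UMIs in that cluster, where 0.781% of genes were higher and 0.684% lower between the follicles (1.46% either way).

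**Figure D3:**
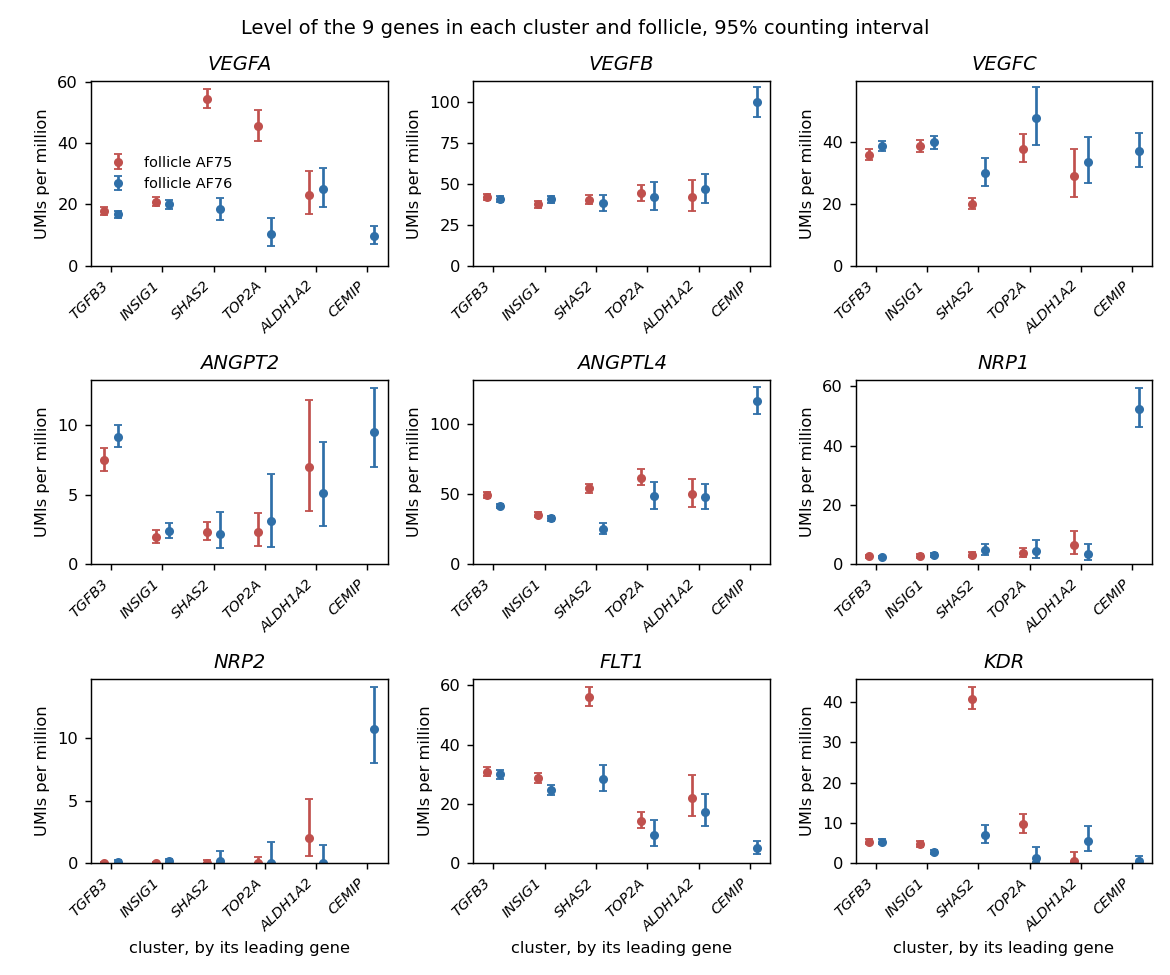
Level of each gene (CPM, linear axes that differ between panels) in the 6 clusters of follicles AF75 and AF76. Points are summed levels and bars 95% counting intervals. VEGFA, FLT1 and KDR of AF75 stand high in the SHAS2 cluster, and NRP1, NRP2, VEGFB and ANGPTL4 of AF76 stand high in the CEMIP cluster, which has no AF75 point because it held 1 cell there.

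At a finer resolution most KDR UMIs of AF75 lay in 1 group of cells. This group, led by PTGS2 (prostaglandin synthase), CALCRL (a receptor subunit for adrenomedullin) and ALPK2, had 1022 cells in AF75 and 35 in AF76, and its AF75 cells all belonged to the SHAS2 cluster. It was 10.9% of AF75 cells and held 54.3% of their KDR UMIs, 28.2% of VEGFA and 21.8% of FLT1, but 10.5% of VEGFB. KDR was at 67.4 CPM (62.6 to 72.4), VEGFA at 79.7 CPM (74.5 to 85.1), FLT1 at 75.1 CPM (70.0 to 80.4) and ANGPTL4 at 78.4 CPM (73.2 to 83.8) in these cells. ANGPTL4 was not higher here than in the finer cluster led by STAR (cholesterol transport), where it was at 83.6 CPM in AF75, against 80.8 CPM in AF76, in 882 and 724 cells. VEGFC was at 19.5 CPM. The median depth was 10207 UMIs. A cluster that comes almost wholly from 1 library may be that library rather than a cell type.

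**Figure D4:**
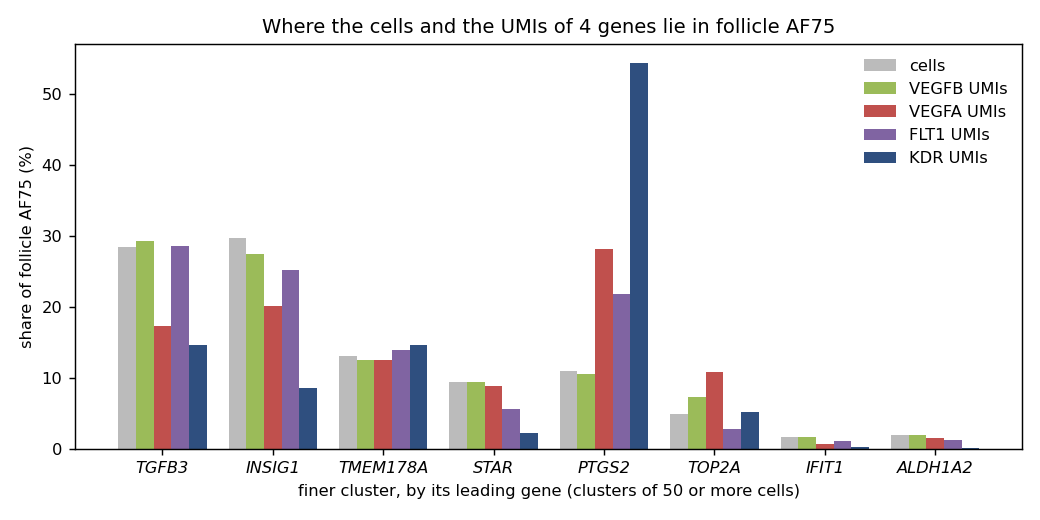
Share of AF75 cells (grey) and of the AF75 UMIs of VEGFB, VEGFA, FLT1 and KDR (y axis, %) in each finer cluster of 50 or more cells (x axis, by leading gene). In the PTGS2 group, with 10.9% of cells, KDR reaches 54.3% and VEGFA 28.2%, while VEGFB follows the share of cells.

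The calls between follicles were lost when groups of cells found almost only in 1 of them were left out. Without the PTGS2 group, VEGFA was 1.25-fold and KDR 1.47-fold higher in AF75, and neither was called. Without the CEMIP cluster the NRP1 ratio of AF76 to AF75 was 0.988. Without both groups none of the members was called, while 3.89% of all genes still were. VEGFB, at 1.02, and FLT1, at 0.932, were then nearest to equal beside NRP1, at 0.977. These sets of cells were chosen after the values had been seen. KDR and VEGFA, or NRP1, were high in them, so leaving them out had to bring those ratios nearer to 1. In the TOP2A cluster, held by both follicles, VEGFA was 4.41-fold (2.89 to 7.05) and KDR 7.18-fold higher in AF75 (2.36 to 35.7, 71 and 3 UMIs). A single AF75 cell held 20 of those 71 KDR UMIs. The mural and cumulus markers of the TOP2A cells differed between the follicles, as given above. The part of this in the ratios was not tested. KDR was also 1.79-fold higher in AF75 in the INSIG1 cluster. It was near equal in the TGFB3 cluster and lower in AF75 in the ALDH1A2 cluster (1 and 14 UMIs, 9 of the 14 in 1 cell).

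The CEMIP cluster of AF76 differed most in the neuropilins. NRP1 was at 52.4 CPM there (46.2 to 59.3) against 2.95 CPM in the other AF76 cells, 17.8-fold higher (15.0 to 21.1), and its 254 UMIs were 45.3% of the NRP1 UMIs of the follicle. NRP2 was at 10.7 CPM (8.02 to 14.1), and 52 of the 65 NRP2 UMIs lay in this cluster. ANGPTL4 was at 116 CPM (3.07-fold, 2.81 to 3.35), VEGFB at 99.7 CPM (2.45-fold, 2.23 to 2.70) and ANGPT2 at 9.50 CPM (1.54-fold, 1.11 to 2.07). VEGFA at 9.70 CPM (0.539-fold), FLT1 at 4.95 CPM (0.182-fold) and KDR with 3 UMIs (0.142-fold, 0.0291 to 0.417) were lower. In all 4 members were called higher and 3 lower, in a cluster where 39% of genes were called higher and 14.6% lower.

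The granulosa sum of the CEMIP cells was 5294 CPM, while the other clusters of AF76 had between 19926 and 27401 CPM. INHA, an inhibin subunit, carried that gap, at 2294 CPM beside 17320 to 24893 CPM. The other granulosa genes listed were not below the range of the other clusters, and FSHR, the receptor for follicle-stimulating hormone, was highest here, at 37.6 CPM beside 0.332 to 2.52 CPM. Their immune sum was 92.3 CPM, with 6 of 8 immune genes at 5 CPM or more, against 1.58 to 5.16 CPM in the other clusters. Of the 8 theca or stromal markers 4 reached 5 CPM there and 1 in each other cluster. The sum of these 8 was lowest there, though, at 96.6 CPM beside 176 to 616 CPM in the other clusters. The sum of the endothelial markers was 51.6 CPM, within the range of the other clusters (37.2 to 66.3), but VWF was at 22.3 CPM beside 0.394 to 4.04 and PLVAP at 6.19 CPM beside 0.332 to 0.449, with CDH5 and ROBO4 at 0. Of the 4 pericyte markers (RGS5, PDGFRB, CSPG4 and NOTCH3) 3 reached 5 CPM there and 1 in each other cluster, with CSPG4 at 0. Their sum was 335 CPM, within the range of the other clusters (307 to 760). PDGFRB, a gene of pericytes and other stromal cells, was at 40.5 CPM beside 1.88 to 3.86. CEMIP, CCDC80 and the smooth muscle genes MYH11 and ACTA2 were among the leading genes, and the median depth was 6435 UMIs. The part of other cell types and of depth in the neuropilin levels was not tested. Leukocyte-like barcodes held NRP2 at 168 CPM in AF75 (23 UMIs in 4 barcodes) and 97.2 CPM in AF76 (12 UMIs in 19), with FLT1 and KDR at 0. They also held NRP1 at 65.8 CPM (9 UMIs) and 48.6 CPM (6 UMIs), and VEGFB at 102 and 81.0 CPM. ANGPTL4 had 1 UMI in each follicle's set (7.31 and 8.10 CPM). Leaving out those within the limits (1 in AF75 and 10 in AF76) gave a ratio of AF76 to AF75 of 1.72 for NRP1 and 11.7 for NRP2.

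Free RNA was read from red-cell-like barcodes, whose beta-globin transcript made up at least 20% of UMIs. AF75 had 12 (median 1811.5 UMIs) and AF76 46 (median 3602), far shallower than the cells. In AF76 VEGFB was found in 1 of 46, VEGFC in 1 and ANGPTL4 in 2 (4.35%, exact interval 0.531 to 14.8). VEGFA, FLT1, KDR, ANGPT2, NRP1 and NRP2 were found in 0 of 46, which allows a share of up to 7.71%. The shares of cells with a KDR, ANGPT2, NRP1 or NRP2 UMI all lie below that limit and are not read as numbers of expressing cells. In AF75 VEGFA was found in 1 of 12 (8.33%, 0.211 to 38.5) and FLT1 in 0 of 12, which allows up to 26.5%, so the AF75 shares of both genes lie within what this background allows.

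Across cells, pairs of the 9 genes were nearly uncorrelated. Over all 36 pairs, Pearson's r on log counts of thinned cells ran from -0.02 to 0.10 in AF75 and from -0.02 to 0.07 in AF76, with medians of 0.00 in each, and 0 pairs reached 0.1 in both follicles. The highest in AF75 was FLT1 with KDR, at 0.10 over 9343 cells, and that pair was at 0.02 over 7738 cells of AF76. The highest in AF76 was ANGPTL4 with NRP1, at 0.07, which was at 0.02 in AF75. In AF75, 81 thinned cells held both FLT1 and KDR, where 41.2 would hold both if the genes were independent. In AF76 it was 13 cells, beside 10.2. Cells of 1 library share depth and cluster membership, and at these low counts weak correlations are no finding. Within the SHAS2 cluster of AF75 (1912 cells) FLT1 with KDR reached 0.16 and VEGFA with ANGPTL4 0.15. In that cluster of AF76 (387 cells) the same pairs were at 0.04 and 0.03.

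**Figure D5:**
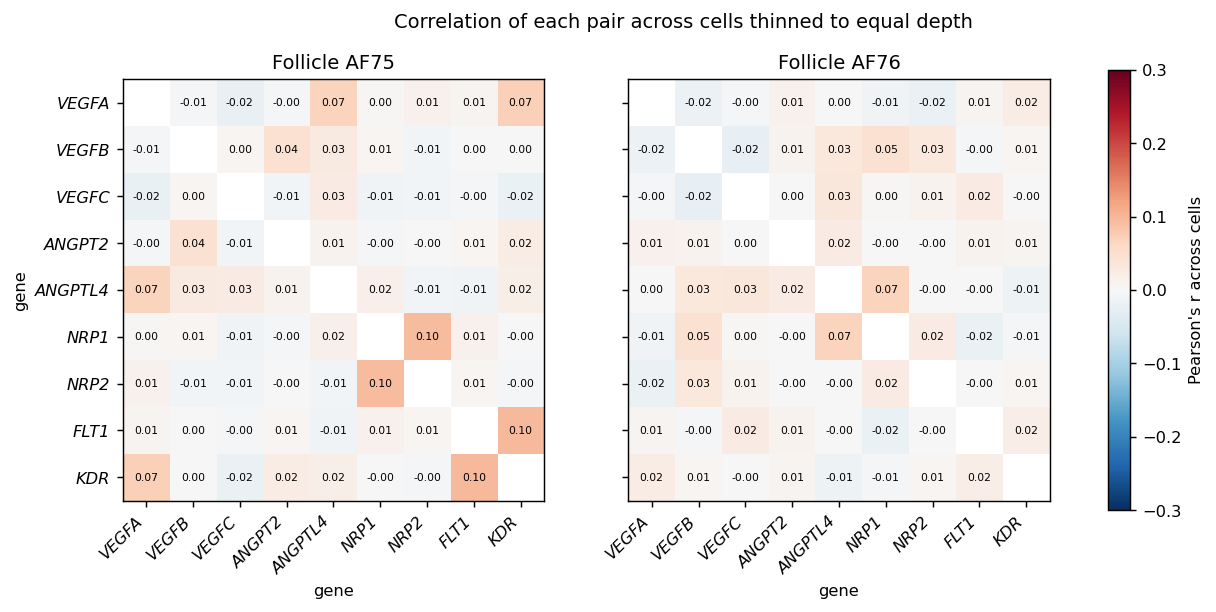
Pearson's r (colour, and printed in each cell) for each pair of the 9 genes across cells thinned to 5000 UMIs, in AF75 (left, 9343 cells) and AF76 (right, 7738 cells). The highest value is FLT1 with KDR in AF75, at 0.10, and ANGPTL4 with NRP1 in AF76, at 0.07, and most pairs lie near 0.

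Ligand and receptor were mostly seen in different cells. In thinned AF75 cells 11.3% held a VEGFA UMI, 15.9% a UMI of FLT1 or KDR, and 2.04% both, beside 1.80% if independent. In AF76 the values were 8.14%, 12.1%, 1.07% and 0.984%. In the SHAS2 cluster of AF75 the share with both was 5.39%, beside 4.85%. Most cells with VEGFA RNA therefore showed no receptor RNA at this depth, which does not show its absence.

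Among 5053 other genes, those nearest in pattern to each member were ranked by the smaller of the r values of the follicles, for the 4 members with a UMI in at least 10% of thinned cells in both. For ANGPTL4 they were CYP11A1, the enzyme that starts steroid synthesis (r of 0.15 and 0.11), TNFRSF6B (0.13 and 0.11), IQGAP2 (0.10 and 0.13), the glycolytic enzyme ALDOA (0.09 and 0.09) and an unnamed gene (ENSSSCG00000006395, 0.11 and 0.09). VEGFC also had CYP11A1 first (0.07 and 0.06), then NR5A2, MGARP, FDX1 and TMEM229A. FLT1 had SLC46A3 (0.08 and 0.06), SDC1, UAP1 and RRBP1. VEGFB had YWHAB (0.04 and 0.05), S100A6, ECHS1, PLP2 and RPL8. Within the SHAS2 cluster of AF75, a look added after the values were seen, KDR went with ATP1B1 (0.27), the receptor tyrosine kinase KIT (0.27) and ARHGAP28 (0.24) over 1912 cells. KIT lies 316810 bases from KDR on chromosome 8. VEGFA there went with the glycolytic enzyme ENO1 (0.24), INHBB (0.21) and DDIT4 (0.21). In the SHAS2 cluster of AF76 (387 cells) none of these genes was among the 5 nearest to KDR or VEGFA.

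KDR, FLT1 and ANGPTL4 stood high together with VEGFA in the PTGS2 group (ANGPTL4 in the STAR group too), so the 300 bases before their annotated starts are shown, from the RefSeq annotation of the Sscrofa11.1 assembly and read on the strand of the gene. Capitals mark the letters ACGTG or GCGTG (the core of the hypoxia response element) and GGGCGG (the GC box) on either strand, and overlapping matches run together. The KDR window, chr8:41856380-41856679 on the minus strand, ends 338 bases before the coding sequence.
KDR: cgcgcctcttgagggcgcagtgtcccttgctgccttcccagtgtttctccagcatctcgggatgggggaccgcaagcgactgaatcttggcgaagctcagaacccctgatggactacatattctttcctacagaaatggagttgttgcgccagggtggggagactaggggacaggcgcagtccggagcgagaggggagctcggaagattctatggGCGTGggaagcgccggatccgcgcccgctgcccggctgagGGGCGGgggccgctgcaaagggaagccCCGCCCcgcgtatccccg
It holds GCGTG once and GGGCGG at 2 places. The FLT1 window, chr11:5797096-5797395 on the minus strand, lies before a start 2138 bases from the coding sequence in the genome.
FLT1: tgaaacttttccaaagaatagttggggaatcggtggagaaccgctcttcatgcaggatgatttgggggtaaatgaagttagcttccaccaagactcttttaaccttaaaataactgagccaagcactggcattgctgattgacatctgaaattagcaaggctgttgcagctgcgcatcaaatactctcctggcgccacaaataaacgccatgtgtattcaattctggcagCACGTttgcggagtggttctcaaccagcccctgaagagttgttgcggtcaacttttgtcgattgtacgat
It holds ACGTG once. The ANGPTL4 window, chr2:70912893-70913192 on the minus strand, ends 91 bases before the coding sequence.
ANGPTL4: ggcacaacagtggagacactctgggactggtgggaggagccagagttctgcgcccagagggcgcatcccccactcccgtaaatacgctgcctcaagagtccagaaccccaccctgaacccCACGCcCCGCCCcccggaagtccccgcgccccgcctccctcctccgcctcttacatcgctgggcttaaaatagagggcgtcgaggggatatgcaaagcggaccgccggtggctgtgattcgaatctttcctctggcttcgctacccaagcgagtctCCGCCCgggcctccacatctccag
It holds GCGTG once and GGGCGG at 2 places. Of 19531 such windows of protein-coding genes, 21.7% hold ACGTG, 35.3% GCGTG and 47.7% GGGCGG, so these letters are common before gene starts. Among the members not shown, VEGFB, NRP1 and NRP2 hold GCGTG once each, and VEGFB holds GGGCGG at 13 places. VEGFC and ANGPT2 hold none of these letters. A match of letters is a description and not a site of binding. For VEGFA the annotated gene starts at its coding sequence, so no window was taken.

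The related genes were sorted into 7 lists. Of the other VEGF and Tie genes, 1 of 7 had 200 UMIs: ANGPT1, the ligand that activates TEK, was at 4.23 CPM in AF75, against 5.91 CPM in AF76 and was not called. TEK itself had 62 and 25 UMIs and TIE1 114 and 199, and the VEGF receptor gene FLT4 had 0 and 2. Of the other angiopoietin-like genes, ANGPTL1 was called higher in AF76 (3.02 and 4.73 CPM, ratio 1.57) and ANGPTL2 lower (2.30 and 1.45 CPM, ratio 0.630). Of 13 semaphorin and plexin genes, 11 had 200 UMIs and none was called. SEMA3A, a ligand of NRP1, was at 48.9 and 47.8 CPM and the neuropilin adaptor GIPC1 at 49.5 and 44.2 CPM, both far above NRP1 itself.

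Oxygen sensing genes and their targets gave 4 calls, all lower in AF76, among the 5 and 11 of their genes with 200 UMIs, beside 3.85% of all genes called lower. HIF1A, the oxygen-regulated subunit of the hypoxia factor, was at 458 CPM in AF75, against 287 CPM in AF76 (ratio 0.627, 0.618 to 0.636). EPAS1, its paralog HIF-2 alpha, was at 4.34 and 0.982 CPM (0.226, 0.182 to 0.279). Of 11 targets, LDHA (lactate dehydrogenase A) was at 218 and 128 CPM (0.586) and ANKRD37 at 3.07 and 1.18 CPM (0.382). The other 9 were not called, with DDIT4 at 630 and 803 CPM and P4HA1 at 420 and 413 CPM, and the oxygen sensor EGLN1, at 105 and 115 CPM, was not called either. In the SHAS2 cluster HIF1A was at 800 CPM in AF75, against 412 CPM in AF76 and LDHA at 484 and 178 CPM, while in the TGFB3 cluster LDHA was at 102 and 101 CPM. The median log2 ratio, over genes with 200 UMIs, was -0.19 for the 5 oxygen sensing genes and -0.14 over the 11 targets, beside -0.03 over the 8 members and 0.00 over all 10049 genes.

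None of the 8 genes of the lipid list with 200 UMIs was called. PDK4, a kinase that limits glucose oxidation, was at 2103 and 2687 CPM, the lipid droplet protein PLIN2 at 91.5 and 121 CPM, and PPARD and PPARG, receptors known to drive ANGPTL4, were at 10.9 and 10.7 CPM and at 22.0 and 22.2 CPM. Of the other angiogenic and antiangiogenic factors, 1 of 8 was called. THBS1, an inhibitor of vessel growth, was at 363 CPM in AF75, against 53.0 CPM in AF76 (ratio 0.146, 0.142 to 0.150). In the SHAS2 cluster it was at 1423 and 99.8 CPM.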

How the data were processed

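Somatic cells of 2 antral follicles of 1 pig were sequenced as 1 library each. The deposited matrices hold counts: whole-number UMI counts per gene and barcode, which the authors made with CellRanger 6.0.2 (per the file headers) on the Sscrofa11.1 genome. Barcodes were filtered here by the limits of the study (2000 to 5000 genes, under 7% mitochondrial), and doublets were kept, with the 6.9% of barcodes of highest doublet score left out as an alternative. Counts were summed per follicle and cluster. Intervals from scipy 1.17.1 (Python 3.11.15) are exact (Poisson, Clopper-Pearson, conditional for ratios) at 95%. Clusters came from Seurat 5.3.0 (R 4.3.3) with anchor integration, 2000 variable genes without the 79 listed genes, 40 components and resolution 0.24, and a finer grouping at 0.8. Correlations used cells thinned to 5000 UMIs. Scripts were tested on simulated data. No test was run, and the settings tried as alternatives are given at the end. The genes named were the 9 members, and of each pathway list those past 1.5-fold with 200 UMIs (at most 4) and the 2 at the highest level, plus up to 5 companion genes a member. Other names were chosen after their values were seen, and a few genes that this rule names are not reported here. The members and lists were chosen with earlier results of these data known. Ensembl identifiers without a symbol numbered 7356 of 22342, of which 1042 were named from the reference table.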

Additional observations from a re-analysis of the deposited data

Results flagged for a closer look

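KDR in the TGFB3 cluster stood above the other cells in AF76 (1.72-fold) and below them in AF75 (0.318-fold), although its level in the cluster was 5.29 and 5.24 CPM. VEGFA in the TOP2A cluster stood above the other cells in AF75 (1.71-fold) and below them in AF76 (0.580-fold). Both were picked out because the folds over the other cells went in opposite directions, and with 1 library per follicle the difference was not tested.

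Barcodes outside the limits for cells, which no comparison used, held some members at a higher level than the cells of their follicle. VEGFA was at 48.8 CPM in AF75 barcodes with fewer than 2000 genes. NRP1 was at 12.7 CPM and NRP2 at 2.20 CPM in AF76 barcodes with fewer than 2000 genes. NRP2 was at 4.89 CPM in AF75 barcodes with more than 5000 genes, where it had 23 UMIs. The leukocyte-like barcodes of AF75, 1 of 4 within the limits, held 23 NRP2 UMIs in 2 barcodes. No AF75 cell within the limits held more than 3, and the other barcodes outside them held 0. Most of these are therefore the same UMIs. In AF76 barcodes with 7% or more mitochondrial counts, NRP2 was at 10.96 CPM (15 UMIs) and KDR at 13.2 CPM (18 UMIs).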

How the results depend on the processing

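Of the log2 ratios of AF76 to AF75 recomputed under other settings, 73 moved by less than the counting interval, 24 moved by more and 2 reversed. Over all deposited barcodes VEGFB was 0.17, NRP1 1.00, NRP2 1.99 and FLT1 -0.44. In cells thinned to 5000 UMIs VEGFB was 0.17, ANGPTL4 -0.067 and NRP1 1.18. As the mean of per-cell CPM VEGFB was 0.19, ANGPTL4 -0.033, NRP1 1.32 and FLT1 -0.45. The remaining cell sets were chosen after seeing the data. Without the PTGS2 group VEGFA was -0.32, VEGFC 0.13, ANGPTL4 -0.064, FLT1 -0.15 and KDR -0.55, and 1 member passed 1.5-fold, beside 4.3% of genes. Without the CEMIP cluster VEGFB was 0.014, ANGPTL4 -0.30, NRP1 -0.017 and NRP2 1.47, and 2 members passed, beside 5.4%. Without both VEGFA was -0.29, VEGFB 0.024, NRP1 -0.033, NRP2 1.54, FLT1 -0.10 and KDR -0.50, and 0 members passed, beside 3.89%. Leaving out these cells is itself what moved those values. For the other settings the cause was not tested.

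Counts of members past 1.5-fold over the other cells also changed. With no integration of the follicles they were 2 in the ALDH1A2 cluster, 0 in the SHAS2 cluster and 0 in the TGFB3 cluster. With 20 components they were 1 in the INSIG1 cluster and 1 in the SHAS2 cluster, and with the listed genes kept for clustering 1 in the SHAS2 cluster. With no minimum of UMIs 2 members passed in the TGFB3 cluster. Clusters made under other settings took the name of the cluster above that gave most of their cells. They need not hold the same cells. No pair reached an r of 0.1 in both follicles under any of the 4 alternatives tried. No paired analysis was possible because each follicle is 1 library and no test was run. Depth limits NRP2, with 5 UMIs in AF75, and the share of cells with a UMI of any scarce gene.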
